A study of Mus musculus with 9 samples.

Results

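Heat shock chaperone genes were followed in granulosa cells from mouse ovaries after cyclophosphamide, with and without hydroxychloroquine. The set holds 10 genes, Hspa1a, Hspa1b, Hspa8, Hsp90aa1, Hsp90ab1, Hspb1, Hsph1, Dnajb1, Hspd1 and Hspe1, found by symbol for the Ensembl identifiers of the deposited expression table, out of 56748 identifiers. All 10 were among the 14431 genes tested, so none was lost to the filter on low values. Hspa1a and Hspa1b are near-identical copies, and they are also given as a sum. The cells came from female wild-type C57BL/6 mice in 3 groups of 3 libraries. In the group CTX_HCQ, mice received a cyclophosphamide injection of 120 mg per kg together with oral hydroxychloroquine at 40 mg per kg per day, started 7 days ahead of the injection and kept up for 4 weeks after it. In the group CTX, mice received the same injection without hydroxychloroquine. The Control group received vehicle according to the design text and nothing according to the labels, a difference that was not settled. No age is given in the labels, and they do not say whether a library held the cells of 1 mouse or of several, so the p-values cover no more than library-to-library spread, which may be technical.

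Chaperones bind unfolded or partly folded proteins and keep them from aggregating. HSP70 proteins hold short exposed stretches of a client in a cycle driven by ATP, with J-domain proteins that deliver clients and start the cycle and exchange factors that end it. HSP90 proteins act later on a chosen set of clients, among them steroid hormone receptors and kinases, and small heat shock proteins hold unfolded chains without ATP. Hspd1 and Hspe1 form the barrel and lid of the folding chamber of the mitochondrial matrix. When unfolded protein builds up, the transcription factor HSF1 forms trimers and binds heat shock elements, which are inverted repeats of the pentamer nGAAn, and the inducible members of the family rise within minutes to hours. Constitutive members such as Hspa8 and Hsp90ab1 are abundant in most cells without stress. Granulosa cells are the steroid-producing somatic cells around the oocyte, and they depend on steroid receptors that fold with HSP90 and its partners.

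Promoter sequences show which members carry the letters of a heat shock element close to their start. RefSeq windows on GRCm38.p6, from 250 bases before to 50 bases after an annotated start, were at hand for 7 of the 10 members in 10 windows. Each was searched on both strands for a short match of 8 bases, GAANNTTC or TTCNNGAA, and a long match of 13 bases, in which 3 units, alternately GAA and TTC, are each set apart by 2 bases and which always contains short ones. Short matches lay in at least 1 window of 6 of these 7 members and of 17% of all 27025 genes. Long matches lay in windows of 3 members, Hsph1, Hspd1 and Hspe1, and of 0.662% of all genes. Of all 32851 windows, 15.1% held a short and 0.603% a long match. The Dnajb1 windows held neither, which says only that these letters are not in those windows. Stretches of 150 bases that end just before the start are printed for 5 members to show where the matches sit and how many there are, together with 30 bases of Hsph1 that follow its start, with the matched bases in capitals and all sequences written 5′ to 3′ on the gene's strand.
Hspa1a, minus strand, chr17:34972157-34972306: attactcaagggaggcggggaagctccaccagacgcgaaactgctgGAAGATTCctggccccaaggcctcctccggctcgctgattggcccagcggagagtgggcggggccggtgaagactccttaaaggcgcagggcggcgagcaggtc
Hspa1b, minus strand, chr17:34959239-34959388: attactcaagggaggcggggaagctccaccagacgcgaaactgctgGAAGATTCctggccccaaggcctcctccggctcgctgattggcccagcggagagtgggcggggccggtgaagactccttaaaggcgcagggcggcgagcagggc
Hspb1, plus strand, chr5:135887769-135887918: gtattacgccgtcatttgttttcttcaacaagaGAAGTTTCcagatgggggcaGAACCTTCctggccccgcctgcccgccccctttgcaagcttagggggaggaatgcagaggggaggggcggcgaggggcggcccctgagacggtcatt
Hsph1, minus strand, chr5:149636337-149636486: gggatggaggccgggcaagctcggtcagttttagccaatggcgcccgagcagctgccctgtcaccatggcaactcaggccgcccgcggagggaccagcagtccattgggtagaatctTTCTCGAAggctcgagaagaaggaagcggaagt
Hsph1 after its start, minus strand, chr5:149636287-149636316: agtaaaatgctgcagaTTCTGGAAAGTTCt
Hspe1, plus strand, chr1:55087998-55088147: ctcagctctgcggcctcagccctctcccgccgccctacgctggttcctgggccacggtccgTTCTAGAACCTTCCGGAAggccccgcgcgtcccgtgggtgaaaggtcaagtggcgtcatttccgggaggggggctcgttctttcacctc

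The Hspa1a and Hspa1b stretches were identical at 149 of 150 positions, and their whole windows at 296 of 300. Counted from the start as position 0, the match of both genes began at -104. Those of Hspb1 began at -117 and -97, and those of Hsph1 at -33, 36 and 41, the last pair forming its long match. Counted from the other annotated Hsph1 start, they began at -54, 15 and 20. In Hspe1, 3 overlapping short matches began at -89, -84 and -79 and made up 2 long ones. Hspd1 and Hspe1 lie on opposite strands, and one annotated Hspd1 start is head to head with the Hspe1 start, 216 bases from it. The windows of these starts share 285 bases, so the printed Hspe1 element belongs to the windows of both genes. The other annotated Hspd1 start is 95 bases from the Hspe1 start, placed so that the transcripts overlap, and its window holds no match. A match is a description of letters, and binding was not measured.

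**Figure D1:**
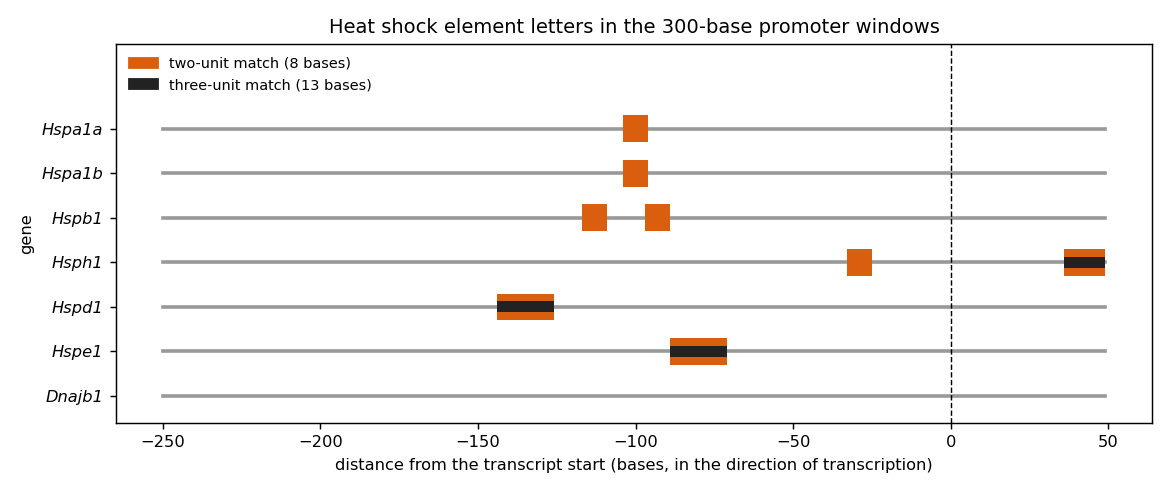
Position of heat shock element letters in the RefSeq promoter windows of the members, with the distance from the annotated start in bases on the horizontal axis, one row per gene, short matches in orange and long ones in black. First bases of the matches lie between -144 in Hspd1 and 41 in Hsph1, and Dnajb1 has none.

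Libraries held 13898112 to 17751053 reads, recovered from the deposited FPKM (fragments scaled to exon length and library size), the unit of every level given here. Differences are on the log2(FPKM + 1) scale, which understates changes of low genes, and come from 1 limma model with Benjamini-Hochberg adjustment over all tested genes. Limma called 0 of 14431 genes at an adjusted p under 0.05 in each comparison, and 0 with voom on the recovered reads. At an unadjusted p under 0.05 it passed 1126 genes in CTX against Control, 785 in CTX_HCQ against CTX and 312 in CTX_HCQ against Control. All 10 granulosa markers were detected in every library, with summed levels of 5297 to 6268 FPKM in CTX_HCQ, 5152 to 7453 FPKM in CTX and 4424 to 6705 FPKM in Control. Genes of the mitochondrial genome took 11.7%, 12.1% and 15.8% of all FPKM in CTX_HCQ, 17.5%, 15.3% and 28.9% in CTX, and 15.2%, 13.1% and 13.5% in Control, so that CTX lay above Control without overlap.

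In these cells the constitutive chaperones dominated. Hsp90ab1 had the highest level of the set with a median of 756 FPKM over the 9 libraries, followed by Hspa8 with 424 and Hspd1 with 245 FPKM. Hsp90aa1 and Hspe1 came next with medians of 118 and 116 FPKM and were not separated, since Hsp90aa1 was the higher of the pair in 5 of 9 libraries. Below them stood Hspb1 with 36.0, Dnajb1 with 23.4 and Hsph1 with 20.3 FPKM, and Dnajb1 exceeded Hsph1 in 7 of 9 libraries. Hspa1b with 12.9 and Hspa1a with 3.33 FPKM were lowest. Every other pair of neighbours in this order kept its order in 9 of 9 libraries. FPKM is a level per length, so the levels of different genes in the same libraries can be set side by side. Between libraries, the FPKM of all genes summed to 246448.6 in CTX_HCQ 3 up to 378232.5 in CTX 3. Neither the levels nor the main differences were rescaled to this total. The levels of Hspa1a and Hspa1b would be too low if the counting left out reads that match both copies.

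The comparison of CTX with Control asks what cyclophosphamide left behind in granulosa cells. All 10 members had a higher mean in CTX, by a log2 difference of 0.07 for Hsp90ab1 to 1.17 for Hspa1a, with a median of 0.52 against 0.00 over all tested genes, where 49.5% of genes were above 0. With quantile normalization the differences of Hsp90ab1 and Hspd1 were -0.05 and -0.07, and with scaling that leaves out mitochondrial genes that of Hsp90ab1 was 0.00. The members were correlated over the libraries (median r 0.65), so in every comparison they are not 10 separate observations. None of the 10 was called by limma (adjusted p 0.639 to 0.952), and 0% of all genes were. Unadjusted p was under 0.05 for 3 of 10 members, Hspa1a, Hspa1b and Dnajb1, against 7.8% of all genes. In 6 of 10 members, Hspa1a, Hspa1b, Hspa8, Hsp90aa1, Dnajb1 and Hspe1, every CTX library lay above every Control library, against 8.72% of all genes. Quantile normalization left 4 of these 6, without Hspa8 and Hsp90aa1, and leaving out 1 library at a time gave 6 to 8 members, where 10.9% to 19.1% of all genes did so. In CTX_HCQ these genes spread across the range of both other groups, with CTX_HCQ 2 near or above CTX and the other CTX_HCQ libraries mostly near Control. In bulk RNA, more cells of a type and more RNA per cell cannot be told apart.

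**Figure D2:**
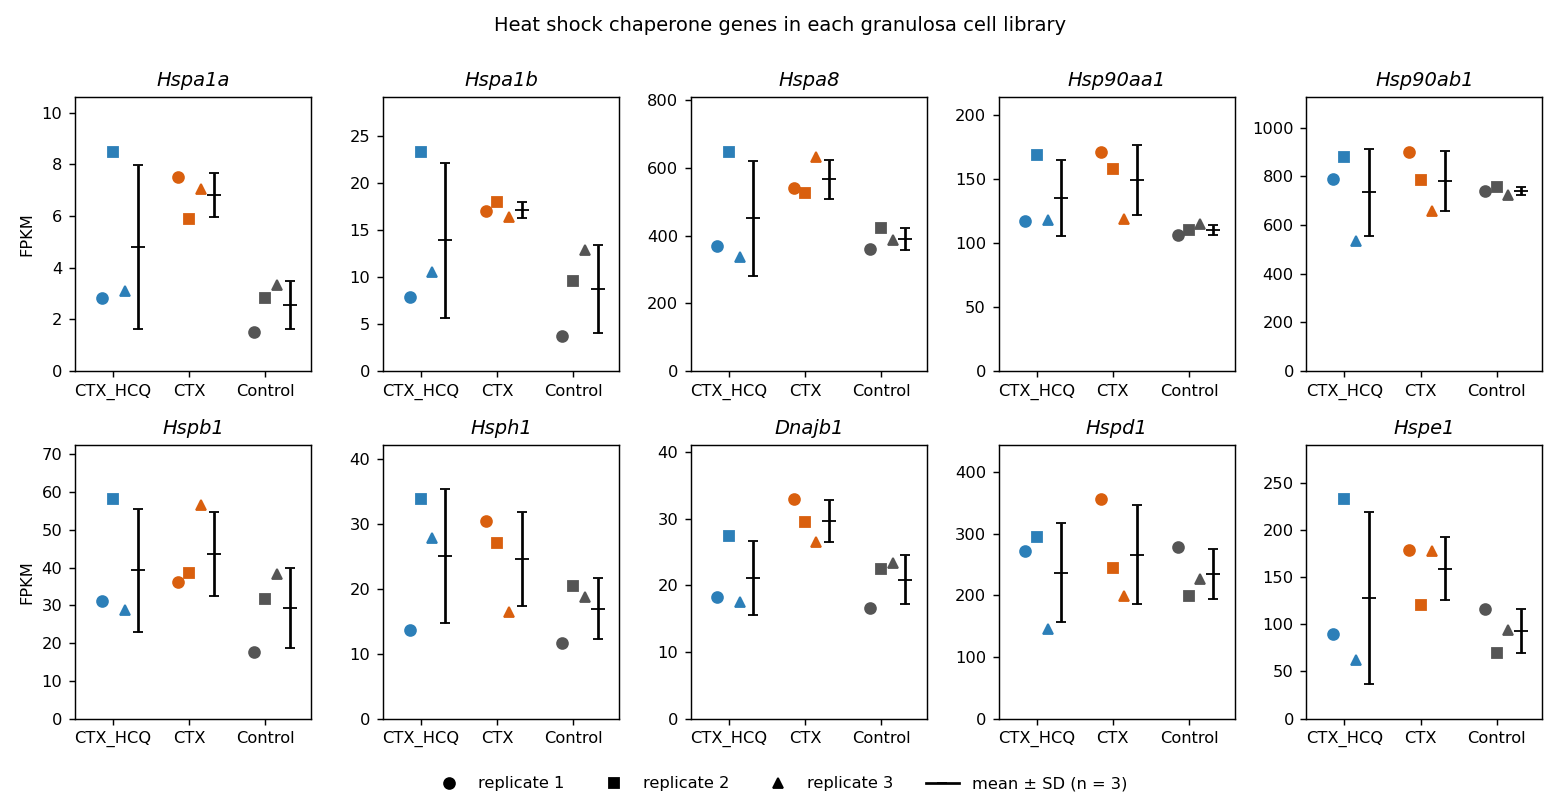
FPKM of each of the 10 members in every library, one panel per gene on a linear axis, with the groups CTX_HCQ, CTX and Control from left to right, a point per library (its shape gives the replicate) and bars for the group mean ± SD, n = 3. The CTX points lie above all Control points for Hspa1a, Hspa1b, Hspa8, Hsp90aa1, Dnajb1 and Hspe1, and the highest CTX_HCQ point is CTX_HCQ 2 in every panel.

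Hspa1a (ENSMUSG00000091971) and Hspa1b (ENSMUSG00000090877) encode the stress-inducible HSP70, which is scarce in unstressed cells and climbs steeply on heat or proteotoxic stress. Hspa1a had 2.85, 8.48 and 3.12 FPKM in CTX_HCQ, 7.51, 5.89 and 7.06 FPKM in CTX, and 1.53, 2.82 and 3.33 FPKM in Control. The CTX libraries lay together well above Control, while CTX_HCQ held the highest library of all and a pair within the Control range. The difference of CTX from Control was 1.17 with a standard error (SE) of 0.34 (limma unadjusted p = 0.00599, adjusted p = 0.639). Hspa1a was called in 1 of the alternatives, with library weights, at 1.0 (SE 0.22, limma adjusted p = 0.0408). That setting called 648 of 14431 genes in this comparison, so the call was not particular to Hspa1a. Over all alternatives the limma adjusted p of Hspa1a ran from 0.0408 to 0.977. These values rest on 77 to 440 reads per library.

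Hspa1b had 7.90, 23.3 and 10.5 FPKM in CTX_HCQ, 17.0, 18.0 and 16.3 FPKM in CTX, and 3.68, 9.56 and 12.9 FPKM in Control. Its order of libraries was close to that of Hspa1a, with the narrow CTX group again above Control. CTX minus Control was 1.04 (SE 0.43, limma unadjusted p = 0.0356, adjusted p = 0.639), and 0.58 without Control 1. The level of Hspa1b was 2.26 to 3.86 times that of Hspa1a over the libraries. Of all stretches of 100 bases in the annotated Hspa1b transcript, 49.9% also occur in that of Hspa1a, so the counting could split reads between the copies and either gene alone is uncertain.

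The sum of both copies avoids that split. It would not recover reads that match both copies if the counting left them out, and the settings are not given. It was 10.7, 31.8 and 13.7 FPKM in CTX_HCQ, 24.5, 23.9 and 23.4 FPKM in CTX, and 5.21, 12.4 and 16.2 FPKM in Control. Group means were 18.7 ± 11.4 FPKM in CTX_HCQ, 23.9 ± 0.556 FPKM in CTX and 11.3 ± 5.58 FPKM in Control (SD, n = 3 each). CTX was the tightest group of the 3 and stood 2.12 times above Control, a log2 difference of 1.15 (SE 0.42, 95% interval 0.20 to 2.09, limma unadjusted p = 0.0218, adjusted p = 0.639). Without Control 1, the library with the lowest sum, it was 0.72. CTX_HCQ minus CTX was -0.49 (SE 0.42, interval -1.43 to 0.45, limma adjusted p = 0.906), and -0.93 without CTX_HCQ 2. Relative to Hspa8, the constitutive HSP70, the inducible sum amounted to 2.91%, 4.90% and 4.05% in CTX_HCQ, 4.52%, 4.54% and 3.70% in CTX, and 1.45%, 2.92% and 4.18% in Control. The groups overlapped in this share.

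Hspa8 (ENSMUSG00000015656), the constitutive HSP70 that serves folding, clathrin uncoating and chaperone-mediated autophagy, had 369, 648 and 337 FPKM in CTX_HCQ, 542, 526 and 632 FPKM in CTX, and 360, 424 and 387 FPKM in Control. Its lowest CTX library stood above its highest Control library, and CTX_HCQ 2 stood above all of them. CTX minus Control was 0.53 (SE 0.31, limma adjusted p = 0.653), and CTX_HCQ minus CTX was -0.39 (SE 0.31, limma adjusted p = 0.906). Group means were 451 ± 171 FPKM in CTX_HCQ, 567 ± 57.4 FPKM in CTX and 390 ± 32.0 FPKM in Control (SD, n = 3 each).

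Dnajb1 (ENSMUSG00000005483), the J-domain partner that drives HSP70 in disaggregation, had 18.3, 27.4 and 17.5 FPKM in CTX_HCQ, 32.9, 29.5 and 26.6 FPKM in CTX, and 16.6, 22.5 and 23.4 FPKM in Control. CTX lay above Control throughout, and 2 of 3 CTX_HCQ libraries lay below every CTX library. CTX minus Control was 0.50 (SE 0.22, limma unadjusted p = 0.0484, adjusted p = 0.639) and CTX_HCQ minus CTX was -0.50 (SE 0.22, limma unadjusted p = 0.0488, adjusted p = 0.906). CTX_HCQ minus Control was 0.00 (interval -0.49 to 0.50). The first pair of differences share the CTX libraries, so their opposite signs are not independent.

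Hsph1 (ENSMUSG00000029657), the HSP110 exchange factor that releases ADP from HSP70, had 13.6, 33.7 and 27.8 FPKM in CTX_HCQ, 30.3, 27.0 and 16.4 FPKM in CTX, and 11.6, 20.3 and 18.8 FPKM in Control. All groups overlapped. It differed from the rest of the set in CTX_HCQ 3, high for this gene while among the lowest 3 libraries for 6 of the 10 members. CTX minus Control was 0.51 (SE 0.36, limma adjusted p = 0.685) and CTX_HCQ minus Control was 0.49 (SE 0.36, limma adjusted p = 1).

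Hsp90aa1 (ENSMUSG00000021270), the inducible cytosolic HSP90, had 118, 169 and 118 FPKM in CTX_HCQ, 171, 158 and 119 FPKM in CTX, and 106, 110 and 115 FPKM in Control. All libraries of both treated groups stood above every Control library, although the lowest were within 5 FPKM of it. CTX minus Control was 0.42 (SE 0.24, limma adjusted p = 0.653). Hsp90ab1 (ENSMUSG00000023944), the constitutive form, had 789, 878 and 536 FPKM in CTX_HCQ, 901, 784 and 656 FPKM in CTX, and 738, 756 and 726 FPKM in Control. Control was narrow and sat inside both treated groups, and CTX minus Control was 0.07 with an interval of -0.61 to 0.74 (limma adjusted p = 0.952), wide enough to hold a change of moderate size either way. The ratio of Hsp90ab1 to Hsp90aa1 was 6.70, 5.18 and 4.54 in CTX_HCQ, 5.26, 4.97 and 5.51 in CTX, and 6.94, 6.87 and 6.32 in Control. The CTX ratios lay below all Control ratios. No test of the ratio was run, and with 3 libraries a group an exact permutation test of it could not go below p = 0.10.

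Hspb1 (ENSMUSG00000004951), a small heat shock protein that holds unfolded chains and binds the actin skeleton, had 31.1, 58.0 and 28.6 FPKM in CTX_HCQ, 36.0, 38.4 and 56.5 FPKM in CTX, and 17.7, 31.6 and 38.4 FPKM in Control. Groups overlapped, with Control 3 level with CTX 2. CTX minus Control was 0.60 (SE 0.35, limma adjusted p = 0.653), and 0.29 without Control 1, so that 1 library carried much of the gap. CTX_HCQ minus CTX was -0.19 (SE 0.35, limma adjusted p = 0.946).

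Hspd1 and Hspe1 encode the mitochondrial chaperonin pair. Hspd1 (ENSMUSG00000025980), the barrel subunit HSP60, had 271, 295 and 145 FPKM in CTX_HCQ, 356, 245 and 198 FPKM in CTX, and 278, 199 and 226 FPKM in Control, with every group overlapping. Its CTX minus Control difference was 0.16 (SE 0.34, interval -0.61 to 0.92, limma adjusted p = 0.886). Hspe1 (ENSMUSG00000073676), the lid HSP10, had 89.9, 232 and 62.6 FPKM in CTX_HCQ, 178, 121 and 178 FPKM in CTX, and 116, 69.0 and 93.8 FPKM in Control. Here CTX stood above Control in all libraries, by 0.78 (SE 0.44, limma adjusted p = 0.653). The ratio of Hspd1 to Hspe1 was 3.02, 1.27 and 2.31 in CTX_HCQ, 1.99, 2.03 and 1.12 in CTX, and 2.40, 2.88 and 2.41 in Control. The CTX ratios lay below all Control ratios, and this ratio was not tested either. Copies named after these genes exist in the annotation, 5 for Hspd1 and 6 for Hspe1. The highest level of any was 8.56 FPKM for a copy of Hspd1 and 0.659 FPKM for a copy of Hspe1.

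**Figure D3:**
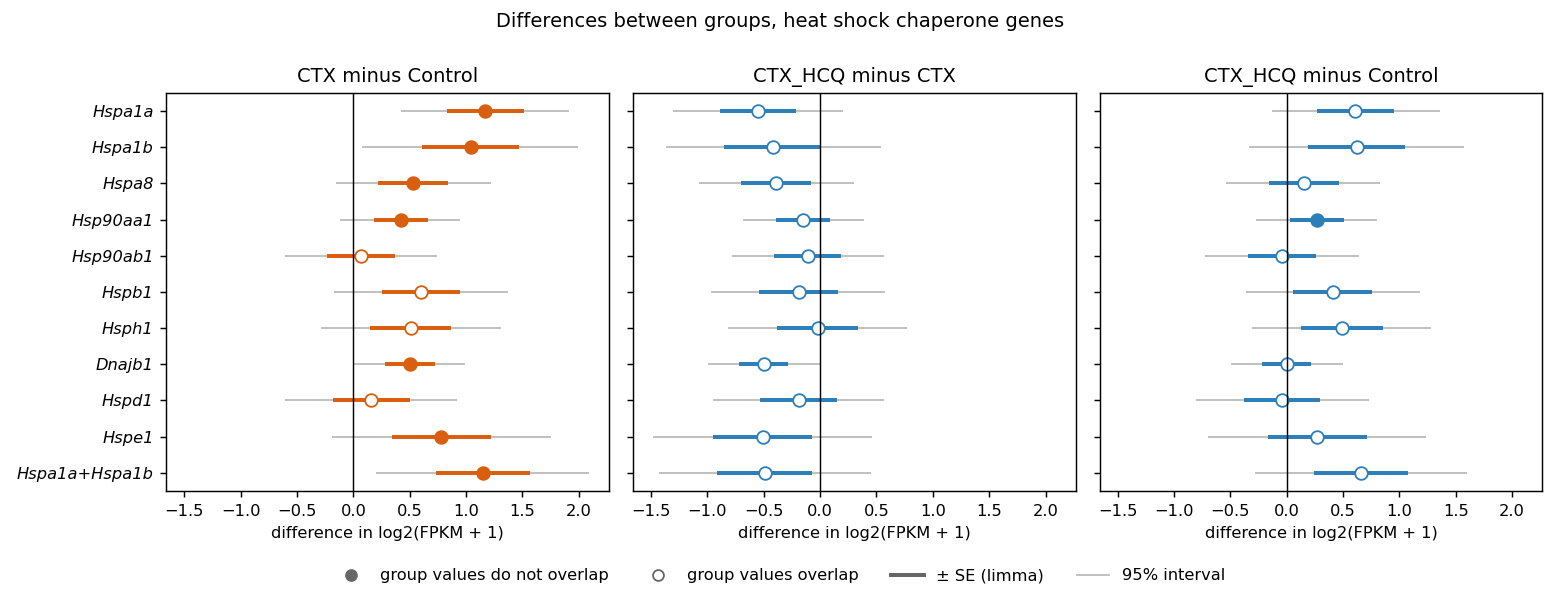
Log2 difference of each member and of the Hspa1a and Hspa1b sum on the log2(FPKM + 1) scale, in panels for CTX minus Control, CTX_HCQ minus CTX and CTX_HCQ minus Control, with points at the limma estimate (filled where the groups do not overlap), thick bars for the SE and thin bars for the 95% interval. The points of the members lie between 0.07 and 1.17 in the first panel and between -0.55 and -0.02 in the middle one.

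The comparison of CTX_HCQ with CTX asks what hydroxychloroquine changed beside cyclophosphamide. All 10 members had a lower mean of log2 values in CTX_HCQ, by -0.55 for Hspa1a to -0.02 for Hsph1, with a median of -0.29 against 0.01 over all tested genes, where 47.9% of genes were below 0. The same CTX libraries entered the comparison with Control, so the opposite directions of these comparisons are not independent. The direction turned under quantile normalization for Hsp90aa1, Hsp90ab1, Hsph1 and Hspd1, with values of 0.10, 0.24, 0.03 and 0.11. It also turned for Hsph1 with scaling without mitochondrial genes, at 0.08, where Hsp90ab1 was at 0.00 and the median over all genes at 0.11. None was called by limma (adjusted p 0.906 to 0.996), and 0% of all genes were. Unadjusted p was under 0.05 for 1 of 10, Dnajb1, against 5.44% of all genes, and 0 of 10 lay below or above CTX without overlap, against 4.57% and 3.45% of all genes. Dnajb1 lay below CTX without overlap with scaling without mitochondrial genes, where 3.9% of all genes did, and with quantile normalization, where 4.93% did.

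CTX_HCQ 2 stood apart from the other libraries of its group. Without it, 7 of 10 members lay below every CTX library, namely Hspa1a, Hspa1b, Hspa8, Hsp90aa1, Hspb1, Dnajb1 and Hspe1, against 16.3% of all genes in that smaller comparison. The differences then were -0.97 for Hspa1a, -1.05 for Hspe1, -0.68 for Hspa8 and -0.69 for Dnajb1. Leaving out a library chosen for its values is a description, and no reason for setting CTX_HCQ 2 aside is given in the labels.

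The comparison of CTX_HCQ with Control asks what remained with both drugs. Here 8 of 10 members were higher, against 48.1% of all genes, and 2 lower, from -0.04 for Hsp90ab1 and Hspd1 to 0.62 for Hspa1b, with a median of 0.27 against -0.01 over all tested genes. Dnajb1, at 0.00, is counted among the 8. The direction turned with library weights for Hspa1b, Hspa8, Hsp90ab1, Hsph1, Dnajb1 and Hspd1, with values of -0.13, -0.07, 0.06, -0.26, -0.22 and 0.28, and under quantile normalization for Hsp90ab1 and Hspd1, at 0.20 and 0.04. None was called by limma (adjusted p 1 for all 10), and 0% of all genes were. Unadjusted p was under 0.05 for 0 of 10 members, against 2.16% of all genes. Hsp90aa1 alone lay above Control without overlap, 1 of 10 against 3.25% of all genes. The sum of Hspa1a and Hspa1b differed by 0.66 (SE 0.42, interval -0.28 to 1.60, limma adjusted p = 1), and by -0.07 with library weights.

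Much of the variation of the chaperones ran between libraries within groups. CTX_HCQ 2 was the highest library for 6 of 10 members and among the top 3 for all 10, and CTX 1 was the highest for the other 4. Control 1 was the lowest for 6 members and CTX_HCQ 3 for the other 4. The mean rank over the members, with 9 the highest, was 3.6, 8.5 and 2.8 in CTX_HCQ, 7.9, 6.5 and 5.5 in CTX, and 2.4, 3.5 and 4.3 in Control. Together the 10 genes made up 0.582%, 0.721% and 0.522% of all FPKM in CTX_HCQ, 0.658%, 0.644% and 0.504% in CTX, and 0.541%, 0.570% and 0.539% in Control. CTX 3, where the mitochondrial genome took 28.9% of FPKM, had the smallest share, so the share did not separate CTX from Control. The CTX_HCQ group spread widest for Hspe1, with a coefficient of variation of 71.0% against 20.8% in CTX and 25.2% in Control.

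**Figure D4:**
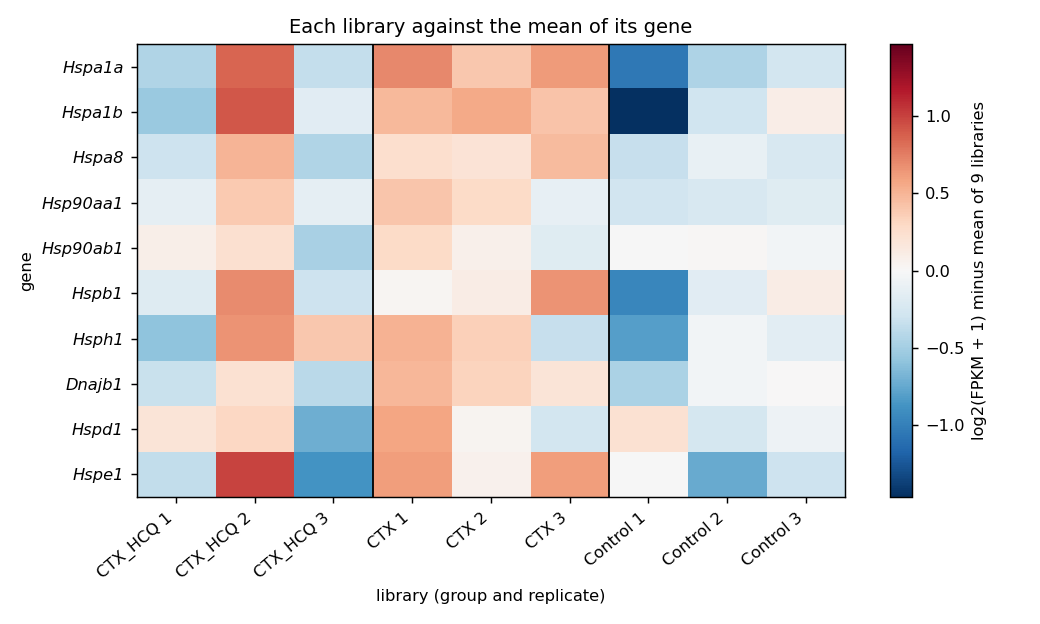
Heat map of each member's log2(FPKM + 1), centred on its mean over the 9 libraries, with members as rows and libraries as columns in the order CTX_HCQ, CTX, Control. CTX_HCQ 2 and CTX 1 are the columns with the highest mean ranks, 8.5 and 7.9, and Control 1 the one with the lowest, 2.4.

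The members were also compared pair by pair over the 9 libraries. Pearson's r of log2(FPKM + 1) was above 0 for all 45 pairs, with a median of 0.65 and a range of 0.03 to 0.94. Over all pairs of the 14431 tested genes 50.1% were above 0 and the median was 0.00. An adjusted exact permutation p under 0.05 was passed by 16 pairs of members, as it was by 16 with Spearman's rho. Their lowest r was 0.77, and 3.78% of all gene pairs had an r of at least that. After the group means were subtracted, the median was 0.64 and 43 of 45 pairs were above 0. The HSP70 genes and Dnajb1 were among the closest: r was 0.94 for Hspa1a with Hspa1b (two-sided exact permutation p = 6.34e-05, adjusted over 45 pairs 0.00285, rho 0.93 with exact permutation p = 0.00075). Hspa1a with Hspa8 reached 0.91 (exact permutation p = 0.00184, adjusted 0.0161, rho 0.82 with exact permutation p = 0.0108). Hspa1a with Dnajb1 reached 0.88 (exact permutation p = 0.00286, rho 0.85 with exact permutation p = 0.00607). Without the pair of libraries farthest from the median of Hspa1a, these values were 0.92, 0.87 and 0.85.

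Hspd1 was closest to Hsp90ab1. Their r was 0.92 (exact permutation p = 0.000548, adjusted 0.0123, rho 0.87 with exact permutation p = 0.00451), and 0.73 without CTX 1 and CTX_HCQ 3 (exact permutation p = 0.054), so that it rested in part on those libraries. Hspd1 had an r of 0.29 with Hspa1a, 0.10 with Hspa1b and 0.04 with Hspb1. Hspd1 and its partner Hspe1 had an r of 0.65 (exact permutation p = 0.0566, adjusted 0.111, rho 0.65 with exact permutation p = 0.0666), and 0.35 without CTX 1 and CTX_HCQ 3, while Hspe1 had an r of 0.86 with Hspa8 (exact permutation p = 0.00424, rho 0.83 with exact permutation p = 0.00827). Over 7 libraries, without the 2 libraries farthest from the median of one gene of each pair, 2 of 45 pairs passed, Hspa1a with Hspa1b and Hspa8 with Dnajb1. Scaling without mitochondrial genes gave 9 passing pairs and a median r of 0.47, and leaving out Control 1 gave 7. Libraries share depth and the mitochondrial share of their FPKM across all genes, and the part of these in the correlations was otherwise not tested.

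**Figure D5:**
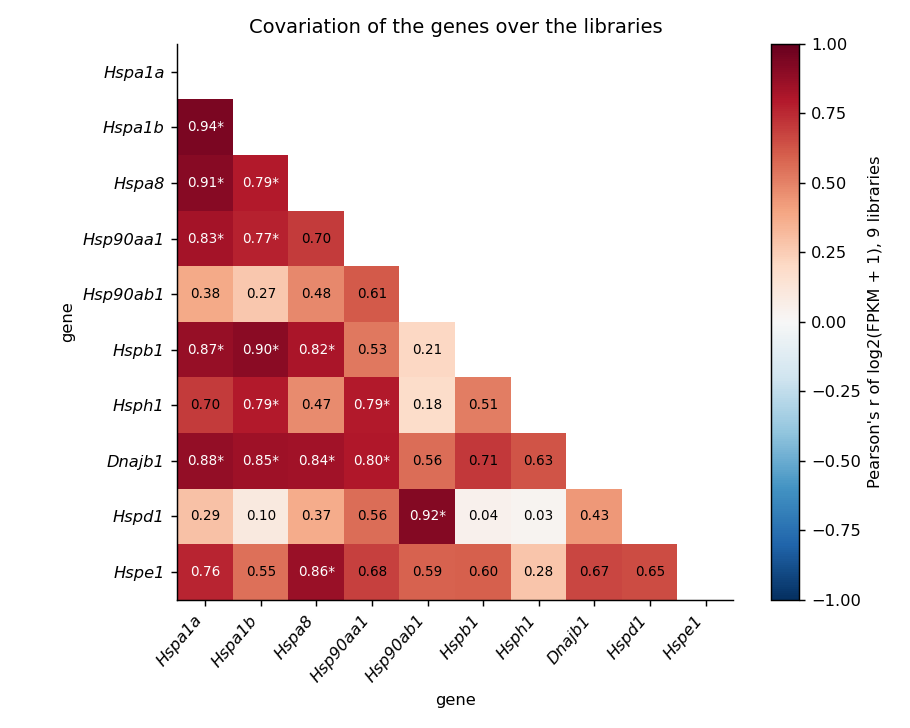
Pearson's r of log2(FPKM + 1) over the 9 libraries for each pair of members, with the genes on both axes, the value printed in each cell and an asterisk on the 16 pairs past an adjusted exact permutation p of 0.05. Values run from 0.03 to 0.94, and Hspd1 has values of 0.10 with Hspa1b and 0.92 with Hsp90ab1.

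Outside the set, the genes whose pattern over the 9 libraries was most like that of the Hspa1a and Hspa1b sum were Klf10 with an r of 0.93, Mtrf1l with 0.92, and Nab2, Jun and Rpl17-ps10 with 0.90 each. Jun, an AP-1 subunit and immediate early gene, had 24.2, 128 and 19.7 FPKM in CTX_HCQ, 70.5, 70.9 and 84.7 FPKM in CTX, and 17.0, 47.8 and 54.4 FPKM in Control, so CTX stood above Control without overlap as it did for the sum. Hsph1 was most like Chordc1, a binding partner of HSP90, with an r of 0.96, followed by Cdc14a with 0.92, Dnajb2 with 0.91, Snord7 with 0.90 and Cebpg with 0.87. Chordc1 had its highest level, 15.1 FPKM, in CTX_HCQ 2 and its lowest, 6.46 FPKM, in Control 1, the extremes of Hsph1 as well. Hspd1 was most like Tmem59, Echs1, Tomm20 and Tspan4 with an r of 0.98 each and Actl6a with 0.97. Echs1, an enzyme of mitochondrial fatty acid oxidation, and Tomm20, a receptor of the mitochondrial import pore, were highest in CTX 1 and lowest in CTX_HCQ 3, as Hspd1 was. These are the most extreme of 14431 genes over 9 points and are descriptions only.

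The other chaperone genes were read from lists of 104 genes, of which 94 were tested. In CTX against Control 64 were higher and 30 lower, 0 were called by limma, 2 had an unadjusted p under 0.05, and 18 lay above Control without overlap, 19.1% of those tested against 8.72% of all genes. Their median difference was 0.14, beside 0.52 for the 10 members and 0.00 for all genes. In CTX_HCQ against CTX 34 were higher and 60 lower with a median of -0.07, and 0 were called. In CTX_HCQ against Control 47 were higher and 47 lower, and 0 were called.

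Regulators of the response are few. Hsf1, the factor that induces the family, had 6.28, 11.3 and 9.28 FPKM in CTX_HCQ, 7.77, 7.58 and 13.0 FPKM in CTX, and 6.49, 8.11 and 9.09 FPKM in Control, with all groups overlapping (CTX minus Control 0.20, SE 0.26, limma adjusted p = 0.804). HSF1 is controlled mainly at the protein, so its RNA level does not report its activity. Hsbp1, which binds the HSF1 trimer and dampens it, averaged 73.8 ± 9.49 FPKM in CTX and 52.8 ± 0.521 FPKM in Control (SD, n = 3 each) without overlap (0.47, limma adjusted p = 0.654). Hsf2 had 3.89, 5.65 and 4.42 FPKM in CTX_HCQ and 5.51, 3.95 and 3.66 FPKM in CTX. Its Control values were 3.63, 3.56 and 3.63 FPKM, below both treated groups without overlap (CTX minus Control 0.21, SE 0.18, limma adjusted p = 0.724). The lowest CTX library, at 3.66 FPKM, was nearly level with Control. Of all genes, 8.72% lay above Control without overlap in CTX and 3.25% in CTX_HCQ. Of 16 other genes known to be induced through HSF1, 14 were higher and 2 lower in CTX than in Control, where 49.5% of all genes were higher. None of the 16 was called, and 5 lay above Control without overlap, against 8.72% of all genes. Among them Dnaja1, a J-domain partner of HSP70, averaged 46.0 ± 13.6 FPKM in CTX and 27.8 ± 1.27 FPKM in Control, and Cacybp, a ubiquitin ligase adaptor, 38.8 ± 6.44 FPKM in CTX and 25.7 ± 2.62 FPKM in Control (SD, n = 3 each). In CTX_HCQ against CTX 2 of the 16 were higher and 14 lower. Hspb8, a small heat shock protein of chaperone-assisted autophagy, had 8.01, 7.33 and 4.44 FPKM in CTX_HCQ, against 8.66, 9.47 and 11.1 FPKM in CTX, below it without overlap (-0.53, SE 0.22, limma unadjusted p = 0.0359, adjusted p = 0.892).

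Of 14 subunits of the TRiC chaperonin and of prefoldin, which hands actin and tubulin to it, 12 were higher and 2 lower in CTX than in Control, with a median of 0.19 and none called. Pfdn5, a prefoldin subunit, had 91.0, 68.3 and 125 FPKM in CTX, against 61.1, 46.4 and 49.6 FPKM in Control (0.81, SE 0.36, limma unadjusted p = 0.0463, adjusted p = 0.639). Of 23 HSP70 and HSP90 cochaperones, 17 were higher and 6 lower, and 5 lay above Control without overlap, against 8.72% of all genes. One of these was Fkbp4, an immunophilin in steroid receptor complexes, with 109 ± 4.98 FPKM in CTX and 86.8 ± 9.67 FPKM in Control (SD, n = 3 each, limma adjusted p = 0.725). Of 23 other J-domain genes, 16 were higher and 7 lower, with 3 above and 4 below Control without overlap, against 8.72% and 11% of all genes.

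Of 10 other HSP70 and HSP110 genes, 5 were higher and 5 lower in CTX than in Control. Without overlap, 1 lay above and 1 below it, against 8.72% and 11% of all genes. Hspa5, the HSP70 of the endoplasmic reticulum, had 413, 434 and 486 FPKM in CTX, against 369, 378 and 403 FPKM in Control, and was the one above. Hyou1, the exchange factor and HSP110 homologue of the endoplasmic reticulum, had 60.0, 77.4 and 61.1 FPKM in CTX, against 86.4, 90.1 and 96.0 FPKM in Control, below it without overlap (-0.46, SE 0.22, limma adjusted p = 0.652). Of 11 genes of mitochondrial protein quality control, 2 were higher and 9 lower, with a median of -0.14. Afg3l2, a protease subunit of the inner membrane, averaged 13.1 ± 1.12 FPKM in CTX_HCQ, 10.3 ± 0.855 FPKM in CTX and 12.8 ± 0.842 FPKM in Control (SD, n = 3 each), with CTX below both other groups without overlap and neither difference called (limma adjusted p = 0.906 against CTX_HCQ and 0.653 against Control). For the HSP90 genes of other compartments, Hsp90b1 and Trap1, CTX minus Control was 0.23 and 0.09 (limma adjusted p = 0.76 and 0.91), and of 4 tested small heat shock protein genes 3 were higher and 1 lower.

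Immediate early genes respond within minutes to growth signals and stress. Of 15 tested, 9 were higher and 6 lower in CTX than in Control, with 3 above and 2 below Control without overlap, against 8.72% and 11% of all genes. CTX_HCQ 2 was the highest library for 6 of all 17 on the list, CTX_HCQ 1 for 4, among them Nr4a1 and Btg2, and Control 1 for 3, Dusp1 among them. Fos, chosen after its values were seen, was one of those above Control, with 5.33, 83.9 and 7.15 FPKM in CTX_HCQ, 47.7, 59.8 and 28.9 FPKM in CTX, and 18.3, 15.3 and 15.5 FPKM in Control. Its highest library was CTX_HCQ 2, and the other CTX_HCQ libraries were below Control. The part of these genes' response in the chaperone levels was not tested.

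Several marker lists of other cells also went one way between groups, and none of their genes was called by limma. Only the fibroblast and stroma sums did not overlap between CTX and Control. Control 1 had the highest Control sums of oviduct, smooth muscle, endothelial and luteal markers, at 89.0, 133, 44.5 and 6372 FPKM. In Control 2 and 3 these were at most 12.5, 56.9, 17.6 and 4266 FPKM. Control 3 had an erythroid sum of 3310 FPKM, beside 471 and 796 FPKM in Control 1 and 2. CTX_HCQ 2 had the highest smooth muscle and theca sums of all libraries, at 181 and 316.5 FPKM. In CTX_HCQ 1 and 3 the smooth muscle sums were 51.9 and 51.8 FPKM and the theca sums 212 and 175 FPKM. Its surface epithelium sum, 151.5 FPKM, was the lowest of all libraries, just below 152.4 FPKM in CTX 1. Between groups, all 6 fibroblast and stroma markers were lower in CTX than in Control, with summed levels of 84.1 to 177 FPKM in CTX_HCQ, 96.1 to 117 FPKM in CTX and 142 to 160 FPKM in Control. All 6 oviduct and ciliated cell markers were higher in CTX than in Control with an unadjusted limma p under 0.05, which 7.8% of all genes had in either direction. In CTX_HCQ all 6 lay below CTX without overlap, against 4.57% of all genes. Their sums were 15.1 to 25.1 FPKM in CTX_HCQ, 82.5 to 404 FPKM in CTX and 7.25 to 89.0 FPKM in Control. All 5 tested endothelial markers were higher in CTX than in Control, with sums of 18.8 to 44.9 FPKM in CTX_HCQ, 28.7 to 53.2 FPKM in CTX and 17.4 to 44.5 FPKM in Control. All 5 tested smooth muscle and pericyte markers were higher than in Control, in CTX with a median difference of 0.47 and in CTX_HCQ with one of 0.45, with sums of 51.8 to 181 FPKM in CTX_HCQ, 84.0 to 118 FPKM in CTX and 41.6 to 133 FPKM in Control. All 5 tested erythroid markers were lower in CTX, with sums of 293 to 860 FPKM in CTX_HCQ, 341 to 569 FPKM in CTX and 471 to 3310 FPKM in Control. All 6 luteal markers were lower in CTX_HCQ than in CTX, with sums of 2539 to 5736 FPKM in CTX_HCQ, 5760 to 8140 FPKM in CTX and 3491 to 6372 FPKM in Control. No marker of these lists was at 0 in every library, and the part of these cells in the chaperone levels was not tested.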

How the data were processed

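RNA sequencing of polyadenylated RNA from granulosa cells gave 9 libraries, 3 each in CTX_HCQ, CTX and Control. The authors deposited 1 table of FPKM per gene. DESeq2 1.20.0, featureCounts 1.5.0-p3, fastp 0.23.2 and HISAT2 2.0.5 are named in the submitters' processing notes, with build GRCm39 (mm39); their roles, settings and strandedness are not given in the sources used here, so overlapping and antisense genes cannot be told apart. Symbols and exon lengths came from GENCODE M21, an annotation of another build, and matched 52073 of 56748 identifiers and 14144 of 14431 tested genes. FPKM times exon length and a library size inferred from the FPKM fell on whole reads, within 0.02 reads, for all 14431 tested genes. The annotated length served for 13578 and a searched length for 853. Within groups the chi-square per degree of freedom of these reads was 14.98 to 158.3, so no pair of libraries agreed within sampling noise.

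Genes with FPKM of at least 1 in at least 3 libraries were tested as log2(FPKM + 1) with limma 3.58.1 (R 4.3.3), moderated variances with a trend on expression, all 9 libraries in 1 model, Benjamini-Hochberg adjustment and a threshold of 0.05. The sum of Hspa1a and Hspa1b entered the same model as a row. Correlations between members used exact permutation tests over 9 libraries. Named genes were the 10 members, up to 4 genes of smallest p per list and comparison, and the 5 genes most like the Hspa1a and Hspa1b sum, Hsph1 and Hspd1; Fos, Hspa5 and Jun's values were chosen after their values were seen. The members, lists and tests were chosen with earlier results of these data known. Promoter windows came from RefSeq (GRCm38.p6). Alternatives covered the pseudocount, filter, scaling, library weights, groups in the model, replicate block, voom and each library left out; those for the count without overlap and the correlations with a library left out were chosen after seeing the data. Scripts were tested on simulated data.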

Additional observations from a re-analysis of the deposited data

How the results depend on the processing

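No gene was called in the main results, and the settings that gave calls were library weights and leaving out Control 1. Library weights gave 648 called genes in CTX against Control, 1 in CTX_HCQ against CTX and 1 in CTX_HCQ against Control, and 1 called member, Hspa1a. With a library left out the numbers of called genes were 0 to 13 in CTX against Control and 0 to 10 in CTX_HCQ against CTX. The cause was not tested. Of 591 member values under alternatives, sum included, 550 kept direction and call, 40 changed direction and 1 gained a call.

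Scaling without mitochondrial genes gave Hsp90ab1 0.00 in all 3 comparisons, Hsph1 0.08 in CTX_HCQ against CTX and Hspd1 0.01 in CTX_HCQ against Control. Quantile normalization gave Hsp90ab1 -0.05 and Hspd1 -0.07 in CTX against Control, Hsp90aa1 0.10, Hsp90ab1 0.24, Hsph1 0.03 and Hspd1 0.11 in CTX_HCQ against CTX, and Hsp90ab1 0.20 and Hspd1 0.04 in CTX_HCQ against Control. Voom gave Hsph1 0.03 in CTX_HCQ against CTX, and Hsp90ab1 0.00 and Hspd1 0.01 in CTX_HCQ against Control. Library weights gave, in CTX_HCQ against Control, Hspa1b -0.13, Hspa8 -0.07, Hsp90ab1 0.06, Hsph1 -0.26, Dnajb1 -0.22, Hspd1 0.28 and the Hspa1a and Hspa1b sum -0.07. With a library left out, in CTX against Control, Hsp90ab1 ran from -0.04 to 0.18 and Hspd1 from -0.07 to 0.35. In CTX_HCQ against CTX, Hsp90ab1 ran from -0.25 to 0.10, Hspb1 from -0.51 to 0.00, Hsph1 from -0.28 to 0.35 and Hspd1 from -0.38 to 0.13. In CTX_HCQ against Control, Hspa8 ran from -0.14 to 0.33, Hsp90ab1 from -0.19 to 0.17, Dnajb1 from -0.20 to 0.12, Hspd1 from -0.22 to 0.28 and Hspe1 from -0.27 to 0.66.

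Members above Control without overlap in CTX_HCQ numbered 1 to 2 of 10 with a library left out, against 5.52% to 10.8% of all genes. Pairs of members past the adjusted p numbered 2 without the 2 libraries farthest from the median of one gene of the pair, 9 with scaling without mitochondrial genes and 7 to 23 with a library left out, and the median r was 0.64 with group means subtracted and 0.58 to 0.74 with a library left out. Genes at an unadjusted p under 0.05 in CTX_HCQ against CTX numbered 2440 without CTX_HCQ 2 and 785 with all libraries. The mean FPKM filter of at least 5 left out Hspa1a, which then had no value. With the replicate number as a block, 0 genes were called in each comparison and 847, 668 and 293 had an unadjusted p under 0.05. Deviations of same-numbered libraries from their group means correlated between -0.46 and 0.14. This check cannot exclude a batch or handling that same-numbered libraries shared. With 3 libraries a group, an exact permutation test of 1 gene could not go below p = 0.10.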
